A study of Mus musculus with 2 samples.

Results

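The genes described here are 40 matrix proteases and inhibitors of such proteases, chosen by name from a list: 11 secreted matrix metalloproteinases (MMPs), 6 membrane-bound MMPs, 7 ADAMs, 8 ADAMTSs, 5 inhibitors and 3 genes of the plasminogen activator system. Every probe that carried one of these gene names was taken, which gave 78 probes, out of 56605 probes and 37074 gene names on the array. The rule uses names alone and no measured value, but the list was drawn up with earlier results of these data known. The cells were mDE6, a mouse line that the labels call odontogenic epithelial cells. CHIR99021 inhibits the kinase GSK-3, which stabilises β-catenin and so switches on genes bound by TCF and LEF factors. Control cells and cells treated with CHIR99021 were each measured at 6 h on 1 array, and both arrays were on the same slide, so position on the slide and condition cannot be told apart. The labels give the dose as 5 mM and describe the control as treated with DMSO, the solvent, whereas the methods of the study give a micromolar dose and an untreated control. With 1 array per condition no difference has a replicate check and no p-value is given. All values come from a single cell line at a single time.

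MMPs, ADAMs and ADAMTSs are zinc-dependent proteases. MMPs cut collagens, laminins, proteoglycans and one another's proforms, ADAMs mostly shed the outer parts of membrane proteins, and ADAMTSs are secreted enzymes that cut proteoglycans or trim procollagens. Tissue inhibitors of metalloproteinases (TIMPs) block the active site, Reck is a membrane-anchored MMP inhibitor, and the plasminogen activators make plasmin, which degrades fibrin and can activate several proMMPs. In the tooth germ these enzymes remodel the basement membrane between epithelium and mesenchyme, and the enamel matrix is later degraded by Mmp20 and Klk4.

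On the control array 35 of the 40 genes had at least 1 probe well above background, beside 48.9% of all gene names on the array. On the CHIR99021 array 35 genes had such a probe, and 34 had one on both arrays. Mmp7, Mmp12, Mmp15 and Mmp24 had no probe above background on either array. After treatment, 4 probes met the criteria for a lower signal, from Mmp11, Adamts5, Adamts9 and Adamts10, and 2 were higher, from Mmp10 and Adamts1. For a lower probe the ratio of CHIR99021 over control could not exceed 0.66 nor the Z-score -2, and for a higher probe both had to reach 1.5 and 2, where the Z-score sets the log2 ratio against the 500 probes nearest in mean signal. The study's methods give a ratio and a Z-score limit for lower genes only, with no minus sign on the latter and no account of the neighbouring probes, so the sign, the neighbours and the mirrored criteria for higher probes were chosen here. The criteria were applied to the 53 member probes, of 36 genes, that were well above background on at least 1 array, and among all 28066 probes of that kind 2.74% were lower and 2.43% higher. Of the member probes 7.55% were lower and 3.77% higher, and these shares rest on 4 and 2 probes and were not tested against that background.

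The sequences of the called probes, of other measured probes of Adamts5, Adamts9 and Adamts10, and of the Reck probe are given because each array has 1 spot per member probe and each call rests on that oligonucleotide. The first 30 of the 60 bases of each probe are shown, 5′ to 3′.
Mmp10, higher: acaaccctgtaaaatgagtctcatgacttc
Adamts1, higher: gaaagagctcctgatttcttcttacaccat
Mmp11, lower: tagcacaggtaccctctaagccatgtacat
Adamts9, lower: gccagagcacttggtgtttgaacaagtgtc
Adamts9, above background on the control array alone: gtaagctgactatggaggcaataggctaca
Adamts5, lower: ccacgaccctcaagaacttttgcaaatggc
Adamts5, above background on the control array alone: tttgtgtatttctaataccagtcataacct
Adamts5, opposite strand, above background on the control array alone: taggaagaaaaactacgttgtctaccatgt
Adamts10, lower: ggcttgaattgaagggtgagatgcagttga
Adamts10, criteria not met: tacaccctcgcccctgatctgcaaccaggg
Reck, just outside the criteria: gtacctctgtcacagttgcctgtttctgtc
In the mouse build mm9 the files place the Mmp10 probe at chr9:7510011-7510070, the Adamts1 probe at chr16:85795044-85795103, the Mmp11 probe at chr10:75386026-75386085, the lower Adamts9 probe at chr6:92722729-92722788, the other Adamts9 probe at chr6:92795656-92795715 and the Reck probe at chr4:43957452-43957511. The lower Adamts5 probe lies at chr16:85899450-85899509 on the minus strand. Of the Adamts5 probes above background on the control array alone, 1 lies at chr16:85859201-85859260 on the same strand and 1 at chr16:85904063-85904122 on the plus strand. The lower Adamts10 probe lies at chr17:33690213-33690272 and the other at chr17:33668819-33668878. The files do not state whether a probe lies in coding sequence or an untranslated region.

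Among the secreted MMPs, Mmp10 was higher and Mmp11 lower, and the other genes met neither set of criteria. Mmp10 encodes stromelysin 2, which cuts laminins and proteoglycans and activates other proMMPs. Before scaling the Mmp10 probe read 61.5 in the control and 169 after treatment. Division by the 75th percentile of each array (487 and 469) gave a ratio of 2.85, or 1.51 ± 0.24 on the log2 scale (Z-score 2.19). The error is the one that the scanning software gives for the 2 signals and covers error within the arrays only. Mmp11 encodes stromelysin 3, which is activated inside the cell by furin. Its signal was 3043 and 1795, a ratio of 0.612 or -0.71 ± 0.20 on the log2 scale (Z-score -2.64). These 2 genes thus moved in opposite directions, Mmp10 from a dim signal and Mmp11 from a bright one. Mmp11 is also on the list of lower genes that the study chose on these arrays, so that list is no independent evidence for it.

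Among the other secreted MMPs, the ratios of genes measured on both arrays ranged from 0.847 for Mmp19 to 1.44 for Mmp13. Mmp2, gelatinase A, went from 11984 to 10442, a ratio of 0.904. Mmp19 had signals of 3125 and 2553 at its brighter probe, while a dimmer probe at 60.9 and 39.0 had a ratio of 0.664. Mmp9, gelatinase B, was above background on the control array alone, at 29.7 against 27.0. The Mmp9 ratio was 0.943, or -0.085 ± 0.471 on the log2 scale, and its other probe was below background on both arrays. Mmp7, which encodes matrilysin and is a known β-catenin target in intestinal tumours, had signals of at most 7.08 at both probes and gave no measurable change. The median log2 ratio of the 9 measured secreted MMP genes was -0.08, and 6 of them were within 1.25-fold.

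**Figure D1:**
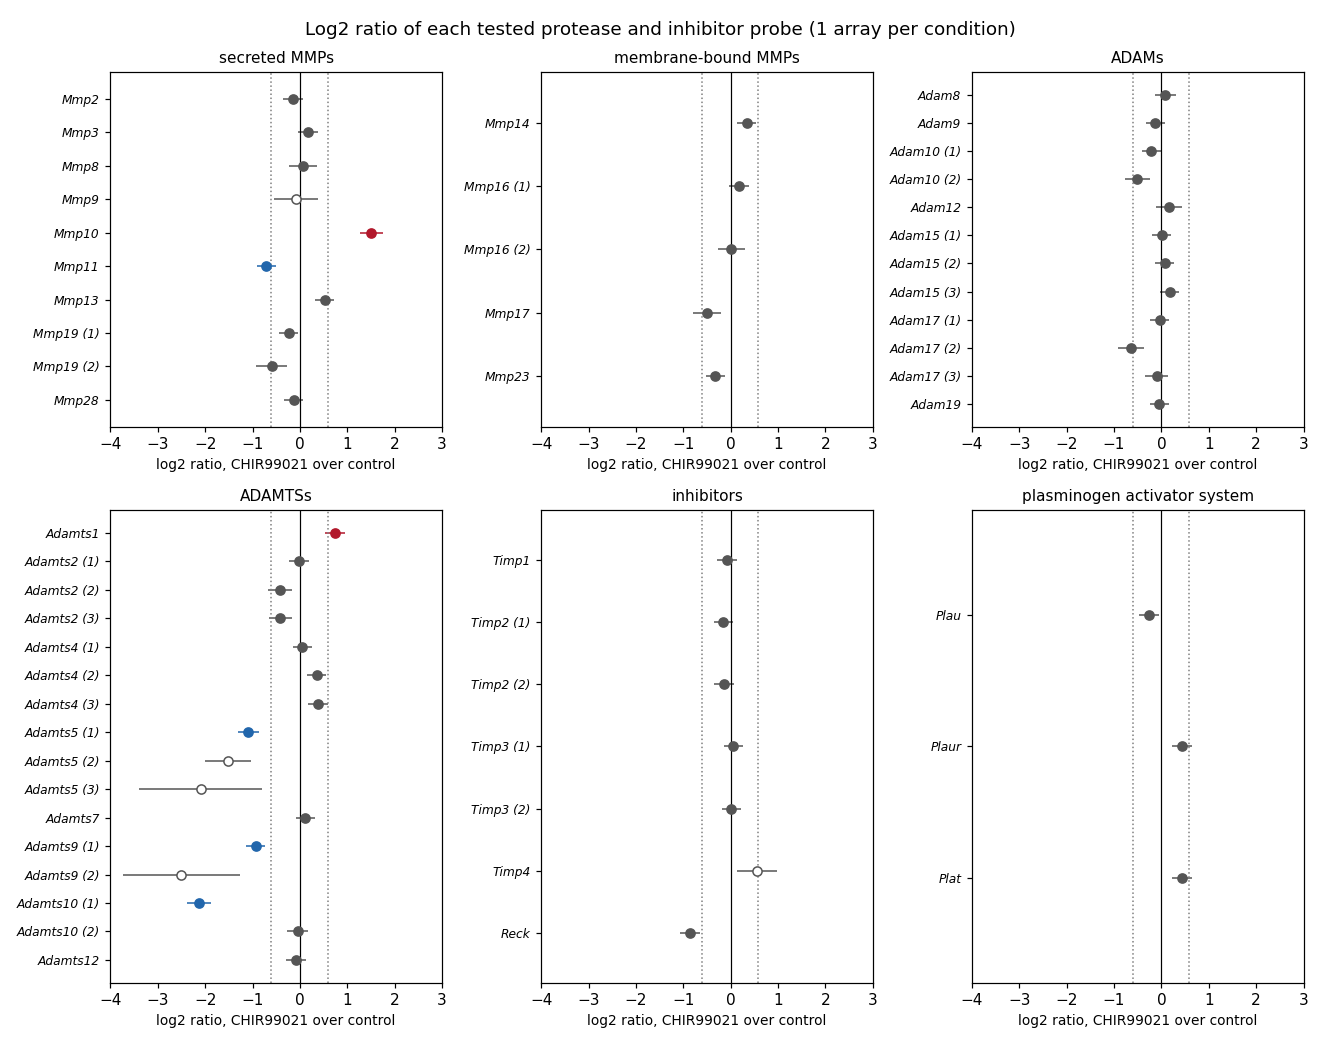
Log2 ratio of CHIR99021 over control for each of the 53 tested member probes, grouped by role; the bars are the error given by the scanning software for the 2 signals, blue and red points met the lower and higher criteria, open points were well above background on 1 array alone, and dotted lines mark ratios of 0.66 and 1.5. Points to the left of 0 were lower after CHIR99021, and 3 of the 4 blue points are ADAMTSs.

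Members make up 6 of the 10 MMP genes that lie next to one another on mouse chromosome 9, and 4 of these were above background on both arrays. Mmp10 was the only one of these members to meet the criteria. Mmp13, collagenase 3, which cuts fibrillar collagen, went from 532 to 737, a ratio of 1.44 (Z-score 1.42). Mmp3, stromelysin 1, had signals of 989 and 1074 and a ratio of 1.13, and Mmp8, neutrophil collagenase, had signals of 52.6 and 53.2 and a ratio of 1.05. The other genes of the run are no members, and of these Mmp1a, Mmp20 and Mmp27 had no probe above background. Mmp1b fell from 259 to 5.78 at 1 probe, at least 9.49-fold lower, but the pixels of its control spot were uneven, with a coefficient of variation of 0.43, and its other probe was below background on both arrays.

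**Figure D2:**
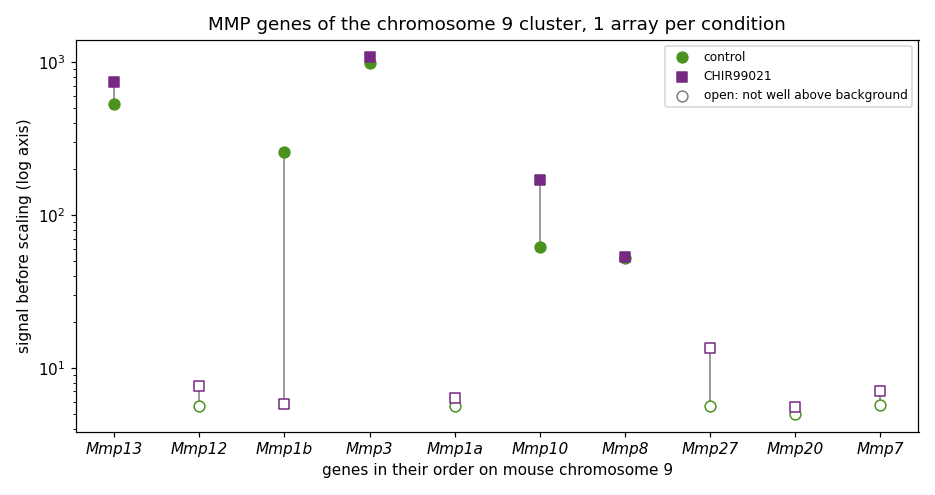
Signal before scaling on a log axis for the MMP genes of the chromosome 9 cluster in their order on the chromosome, at the probe with the highest mean signal of each gene; circles are the control array, squares the CHIR99021 array, and open symbols were not well above background. Mmp10 went from 61.5 to 169 while Mmp3 and Mmp8 stayed within 1.25-fold, and signals of different probes cannot be compared with one another.

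Several promoters of this cluster hold the motif of AP-1, the dimer of Fos and Jun proteins, which is known to drive stromelysin and collagenase genes. RefSeq promoter windows of 300 bases, 250 of them before the gene's start, were found for 27 of the 40 genes, as 32 windows in the build GRCm38.p6. The letters TGANTCA, which read the same on both strands, were found in 7 windows of 7 genes, Mmp3, Mmp7, Mmp10, Mmp12, Mmp13, Adam19 and Plaur, beside 7.81% of all 32851 windows. The TCF motif TCAAAG, searched on both strands, was in windows of Adam19, Mmp7 and Timp1, beside 16% of all windows of that length. The 2 motifs can share the letters TCA, but their matches did not overlap in the members' windows. The 100 bases before the starts of the 3 measured MMP genes with the AP-1 letters are shown with those letters in capitals, all on the plus strand.
Mmp10, chr9:7502242-7502341: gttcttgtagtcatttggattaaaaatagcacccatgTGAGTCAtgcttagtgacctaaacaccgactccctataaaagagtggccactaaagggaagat
Mmp13, chr9:7272414-7272513: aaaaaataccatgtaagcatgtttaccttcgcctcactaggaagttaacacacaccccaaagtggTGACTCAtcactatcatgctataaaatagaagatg
Mmp3, chr9:7445722-7445821: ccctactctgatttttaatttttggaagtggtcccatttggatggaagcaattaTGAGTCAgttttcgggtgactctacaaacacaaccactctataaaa
The motif began 63 bases before the start in Mmp10, 46 in Mmp3 and 35 in Mmp13, and the ratios at these genes were 2.85, 1.13 and 1.44. Whether the motif had a part in these ratios was not tested. Of the other genes with the letters, Plaur had a ratio of 1.35, Adam19 a ratio of 0.969, and Mmp7 and Mmp12 were not measured. A match describes the sequence and does not show that a factor binds there.

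None of the membrane-bound MMPs met the criteria, and 4 of the 6 genes were measured. Mmp23 had the highest control signal of the group and went from 4382 to 3373, a ratio of 0.799. Mmp16 went from 878 to 955 at its brighter probe, a ratio of 1.13, and a second probe gave 1.01. Mmp14, which activates proMMP2 on the cell surface together with Timp2, went from 551 to 671, a ratio of 1.26. Mmp17, which is held in the membrane by a lipid anchor, went from 66.9 to 45.8, a ratio of 0.711. The 4 ratios lay on both sides of 1, with a median log2 ratio of -0.07.

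All 7 ADAM genes were measured on both arrays, no probe met both criteria, and all 7 were within 1.25-fold at the probe with the highest signal. Among all tested genes 62% were within that range. Adam15 went from 16560 to 15989, a ratio of 1.00, and its other probes gave 1.05 and 1.13. Adam9 went from 7313 to 6439, a ratio of 0.913. The 2 main sheddases stayed close to 1 at their brightest probes, with ratios of 0.862 for Adam10 and 0.973 for Adam17. A dimmer Adam10 probe went from 89.5 to 60.6, a ratio of 0.703. Adam17 was 1 of 2 genes whose probes differed by more than 1.5-fold in ratio. Its brightest probe went from 1125 to 1054, a second from 84.7 to 76.0 with a ratio of 0.932, and the other from 90.2 to 55.6 with a ratio of 0.639, where the control spot was uneven.

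The ADAMTSs held 4 of the 6 calls, with 3 lower and 1 higher among the 16 tested probes of 8 genes. These are 18.8% and 6.25% of the ADAMTS probes, beside 2.74% and 2.43% of all tested probes, and the difference was not tested. Adamts1, which cuts the proteoglycans aggrecan and versican, went from 2716 to 4375, a ratio of 1.67 or 0.74 ± 0.20 on the log2 scale (Z-score 2.22). Adamts5, the main aggrecanase of mouse cartilage, went from 218 to 98.8, a ratio of 0.471 or -1.09 ± 0.22 on the log2 scale (Z-score -2.09). A second Adamts5 probe went from 60.04 to 20.2, which was not well above background on the CHIR99021 array, and was at least 2.2-fold lower. The remaining probe went from 27.5 to 6.21 and was at least 1.01-fold lower, and this probe lies on the strand opposite to the other Adamts5 probes. Neither of these 2 probes met the criteria. Adamts1 and Adamts5 are neighbours on chromosome 16, and their ratios of 1.67 and 0.471 had opposite directions.

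Adamts9, which cuts versican and aggrecan, went from 722 to 365, a ratio of 0.524 or -0.93 ± 0.21 on the log2 scale (Z-score -2.47). A second Adamts9 probe went from 43.6 to 7.42 and was at least 1.6-fold lower, and the other 2 were below background on both arrays. Adamts10, which associates with fibrillin microfibrils, had the lowest ratio among the member probes measured on both arrays, and its probes disagreed. The probe that met the criteria went from 272 to 59.9, a ratio of 0.228 or -2.13 ± 0.26 on the log2 scale (Z-score -3.86). The other probe measured on both arrays went from 115 to 107.5, a ratio of 0.97. The spot of the first probe was uneven on the control array, with a pixel coefficient of variation of 0.314 where 99% of the spots above background in the earlier rows, up to row 192, were under 0.26, and it lay in row 382, near the last row of the grid. Its part in the ratio was not tested. The later rows of the grid, past row 192, held 51.6% of the tested probes but 68.5% of the lower and 73.7% of the higher probes of the whole array. Of the 6 member calls, those of Adamts1, Adamts9 and Adamts10 lay in these rows, and those of Mmp10, Mmp11 and Adamts5 in the earlier rows. At the probe with the highest signal the other ADAMTSs were closer to 1. Adamts2, which removes the N-propeptide of procollagens, went from 10977 to 10452 with a ratio of 0.988, and the ratios of Adamts4, Adamts7 and Adamts12 were 1.04, 1.08 and 0.947. The dimmer probes measured on both arrays gave ratios of 0.749 and 0.752 for Adamts2 and of 1.28 and 1.30 for Adamts4.

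**Figure D3:**
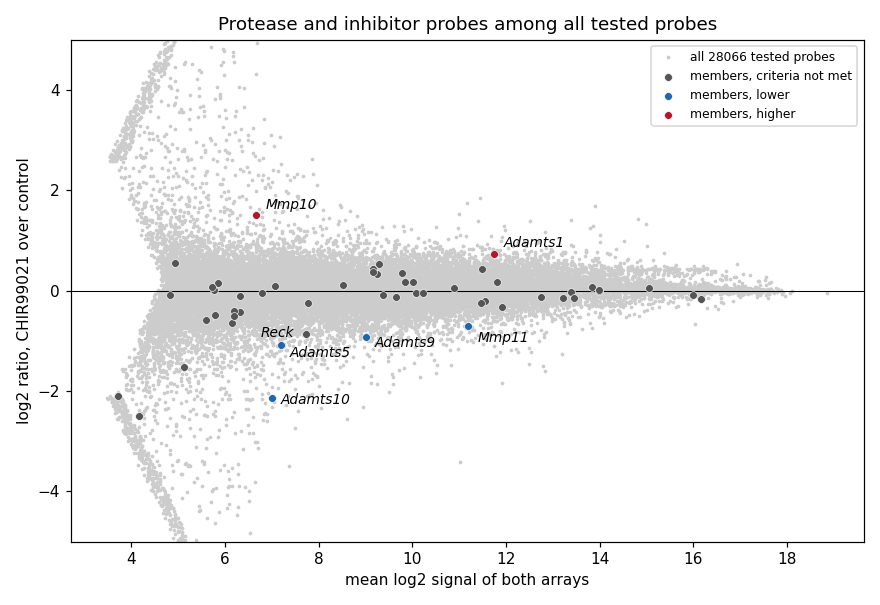
Log2 ratio of CHIR99021 over control against the mean log2 signal of both arrays for all 28066 tested probes (grey) and the member probes (coloured by call); 176 grey probes lie beyond the vertical axis, which ends at 5 in each direction. The called members lie at the edges of the grey cloud at their own signal, and Reck lies beside Adamts5 and Adamts9 without meeting the criteria.

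No inhibitor met both criteria for a lower or a higher signal. Timp2 and Timp1 had the highest control signals of the group. Timp2 went from 79104 to 68389, a ratio of 0.897, and a second probe gave 0.907. Timp1 went from 68600 to 62654, a ratio of 0.947. Timp3, which binds to the extracellular matrix, had ratios of 1.04 and 1.01 at its 2 measured probes. Timp4 was above background on the CHIR99021 array alone, at 36.7 against 25.9, a ratio of 1.47 or 0.56 ± 0.42 on the log2 scale. Its other probes were below background on both arrays. Reck was the member just outside the criteria: it went from 293 to 156, a ratio of 0.552 or -0.86 ± 0.21 on the log2 scale, and its Z-score was -1.98. Reck is also a co-receptor for Wnt7 ligands.

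In the plasminogen activator system no gene met the criteria. Plaur, the urokinase receptor, went from 2531 to 3294, a ratio of 1.35, and Plat, tissue-type plasminogen activator, from 504 to 657, a ratio of 1.35. Plau, urokinase itself, went from 245 to 198, a ratio of 0.838. The receptor and its ligand thus had ratios on opposite sides of 1.

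Over all 36 measured genes the median log2 ratio at the probe with the highest signal was -0.04, beside 0.02 over all 18837 tested genes. The ratio was below 1 for 20 genes and above 1 for 16, and 46.6% of all tested genes were below 1. Within 1.25-fold lay 22 genes, or 61.1%, beside 62% of all tested genes. Of the 10 genes with at least 2 probes measured on both arrays, all 10 had their probes on the same side of 1, and those of Adam17 and Adamts10 differed by more than 1.5-fold. The spread between spots within the arrays was small for bright probes: among 276 probes printed 10 times with a control signal above 1000, the median SD of the log2 ratio was 0.031. For 4 such probes with signals of 100 to 1000 it was 0.138, and for 2 with signals under 100 it was 0.211. On the control array Mmp10 is in the dimmest range, and Reck and the called probes of Adamts5, Adamts9 and Adamts10 are in the middle range.

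The other genes of the pathway were 34 further proteases, protease inhibitors, receptors and substrates. Of these, 21 genes were measured, and of their 30 tested probes 3 were lower (10%) and 1 higher (3.33%), beside 2.74% and 2.43% of all tested probes. Serpinb2, which encodes plasminogen activator inhibitor 2, went from 33.8 to 162, a ratio of 4.96. Thbs1, thrombospondin 1, a matrix protein that slows the activation of proMMP2 and proMMP9, was lower at both probes, from 10004 to 5101 with a ratio of 0.529 and from 756 to 333 with a ratio of 0.457. The third lower probe was that of Mmp1b described with the chromosome 9 genes. Of the enamel proteases, Klk4 went from 71.7 to 74.6, a ratio of 1.08, and Mmp20 was below background on both arrays. The median log2 ratio of this list was 0.16.

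Markers set against the label of the line went partly against it. Of 8 epithelial markers, 4 were above background on the control array. Trp63 was among them, with 1 probe at 2306, 1 at 77.1 that was uneven and was not above background after treatment, and 2 below background on both arrays. Cdh1, Epcam and Krt8 had no probe above background on either array. Krt5 met the higher criteria, at 5.51 (not well above background) against 165, at least 7.24-fold higher, with an uneven spot on the CHIR99021 array. All 8 mesenchymal markers were above background on both arrays, with control signals from 647 for Twist1 to 270783 for Col1a2 at the brightest probe of each gene. Of 5 macrophage and leukocyte markers 4 had a probe above background. Csf1r (640 and 180) had both probes above it, and Cd68 (579 and 164) had 2 of 3. Ptprc had 1 probe at 1709 and 6 probes below background at 4.91 to 7.15, and Itgam 1 probe at 6351 and 1 below background at 11.2. Adgre1 had none. Of 4 endothelial markers 1 was above background, Pecam1, at 29.9. At the brightest probe the ratio was below 1 for 7 of the 8 mesenchymal markers, with a median log2 ratio of -0.20, and none met the criteria. It was below 1 for 2 of the 5 tested epithelial markers, with a median of 0.22, beside 46.6% of all tested genes and their median of 0.02. Many of the 40 proteases are also expressed by mesenchymal cells and macrophages, and fewer cells of a type cannot be told apart from less RNA per cell. The part of these markers in the protease ratios was not tested. The array labelled CHIR99021 had the higher signal of Lef1, a gene induced by β-catenin, at 691 against 239, a ratio of 2.997.

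The calls were compared across 16 other processing settings. Mmp11 kept its call in 15 of 16 settings, Adamts9 in 14 of 15, Adamts1 in 14 of 15 and Adamts10 in 14 of 14 in which its probe had a value. The called Adamts10 probe had no value with the earlier rows alone or without uneven spots, so its 14 settings all rest on the uneven spot. The other Adamts10 probe measured on both arrays was called lower in 0 of 16 settings. Adamts5 and Mmp10 kept theirs in 13 of 16, and both lost it with a floor on low signals, with a Z-score from 1 mean and SD, and with the normexp background correction, where the Mmp10 ratio was 1.94 and the Adamts5 ratio 0.591. Reck, outside the criteria here, met the lower criteria in 4 of 16 settings.

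**Figure D4:**
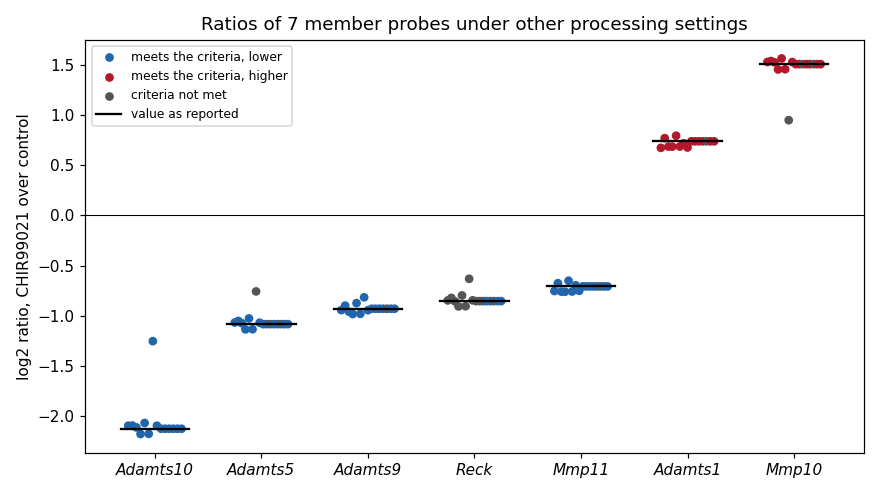
Log2 ratio of CHIR99021 over control for the 6 called member probes and Reck under each of the other processing settings that gave a value (points, coloured by whether the criteria were met), with the reported value as a black bar. Every point stayed on the same side of 0 as the reported value, and the Adamts10 ratio moved from 0.228 to 0.419 under normexp. Settings that alter only the filter or the Z-score cannot change a ratio.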

How the data were processed

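Total RNA of mDE6 cells was amplified, labelled with Cy3 and hybridised by the authors to Agilent 1-colour mouse arrays (design 074809, annotated in mm9, per the file headers; the methods of the study name a human array). The deposited values are the intensity of each spot after background subtraction by Feature Extraction (version 10.7.1.1 per the file headers, 9.5.1.1 per the submitters' processing notes), with no scaling between arrays. A second deposited table holds intensity values that the authors had scaled to each other, and it served as an alternative.

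The log2 intensity minus the 75th percentile of its array over 59305 non-control spots was the unit of comparison (pandas 2.3.3 and numpy 2.4.6 in Python 3.11.15; figures, matplotlib 3.10.9). Spots of a probe were averaged and outlier spots left out. No spot was saturated, and 49.8% and 48.3% of spots were well above background. Probes that either array showed well above background were set against the ratio and Z-score criteria. This was no statistical test, and the number of arrays limits the precision. A probe measured on 1 array gives a limit, its signal against the higher of its own dim signal and the lowest signal well above background (23.7 on the control and 26.3 on the CHIR99021 array). Where the dim signal was the higher, as for Mmp9 and Timp4, the value is the plain ratio and no limit. The criteria for calls were tested on simulated data. The simulated noise was drawn from the spread of neighbouring probes, so that run does not cover replication or uneven spots and does not check any single call.

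Signals and ratios are given for members that met the criteria or had a ratio of at most 0.66 or at least 1.5, for the 2 members with the highest control signal in each role, and for those whose probes differed over 1.5-fold. Other members named were chosen for their role after their values were seen. The members and lists were chosen with earlier results of these data known. The alternatives, computed partly with limma 3.58.1 in R 4.3.3, were other scalings, background corrections, filters, Z-scores and rules for genes with several probes. Of the member probes, 60 carry a RefSeq accession and 59 of these are in the gene table of GRCm38.p6. Promoter sequences are from RefSeq. Protein sequences were not used here, so a planned search for protein motifs was not run.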

Additional observations from a re-analysis of the deposited data

How the results depend on the processing

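The number of members above background on the control array was 35. It was 23 when every probe of a gene had to be above background (36.4% of all gene names), 30 of 40 above the 99th percentile of negative control spots (37.9%), 37 of 40 significantly above the local background (65%) and 25 of 31 in the earlier rows alone (47.9%). The 2 higher probes became 1 with normexp, with a floor on low signals (Adamts1 in each) and with the earlier rows of the arrays alone (Mmp10), and 0 with a Z-score from 1 mean and SD for all probes. The 4 lower probes became 9 with the ratio criterion alone, and 3 to 6 under the other settings. These were not always the same probes. Of the 3 with a Z-score from 1 mean and SD, 1 was among the reported 4, and of the 4 in the earlier rows alone, 2 were. Without uneven spots Adamts10 had no value at its called probe, and 5 probes of Adamts5, Adamts9, Mmp11 and Reck were lower. The median log2 ratio of -0.043 was -0.085 after quantile normalization, -0.092 after cyclic loess, -0.096 with no scaling, -0.094 with the percentile over probes above background on both arrays, -0.087 in the authors' table, -0.011 with median scaling, 0.014 with spike-in scaling (7 probes), -0.008 without a filter on dim probes, and -0.078 with the earlier rows alone, with the mean over probes and with the lowest-ratio probe. It was below the median of all genes in each of these settings, and the causes were not tested. No setting turned the direction of the 6 called member probes, and called probes of other genes were not recomputed. Settings that alter only the filter or the Z-score could not have turned a direction. No paired analysis was possible because there is a single array of each condition, and for the same reason no array could be left out. Dim signals limit the 25 member probes that were below background on both arrays and the 5 that were above it on 1 array alone.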
